A study of Mus musculus with 12 samples.

Results

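The genes described here are 35 genes of the endoplasmic reticulum (ER) that fold, oxidise, export or degrade newly made secretory proteins, or that sense unfolded protein there. They were chosen by name, with no measured value in the rule, from a table of 55487 mouse genes. All 35 were found in the table and all 35 passed the filter on low values, which 14202 genes passed in all. By role they were 9 chaperones and co-chaperones, 2 lectin chaperones, 5 protein disulphide isomerases, 3 collagen folding factors, 3 stress sensors with the transcription factor Xbp1, 9 genes of ER-associated degradation and 3 genes of the translocon.

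Poly(A) RNA had been sequenced from primary vascular smooth muscle cells (VSMCs) of mice labelled wild-type (WT) or Tigar knockout (KO), the study's comparison being of genotype and of stimulation with the growth factor PDGF-BB. TIGAR is a phosphatase that lowers fructose-2,6-bisphosphate and so restrains glycolysis. The 12 libraries formed 4 groups of 3: wild-type without PDGF-BB, wild-type with PDGF-BB at 40 µg/L for 6 h, labelled knockout without PDGF-BB, and labelled knockout with the same dose and time. All groups were grown in medium with fetal bovine serum, came from mice 4 to 6 weeks old and were used between passages 4 and 6. The labels give neither the knockout allele nor the mouse strain. They are also silent on whether replicates are distinct animals or cultures, and the p-values therefore reflect sample-to-sample spread, which may be technical.

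Proteins bound for secretion enter the ER through the Sec61 channel, are held by Hsp70-type and Hsp90-type chaperones, are cross-linked by disulphide isomerases, and are sent back to the cytosol for destruction when they fail to fold. The sensors ATF6, IRE1 (Ern1) and PERK (Eif2ak3) answer an excess of unfolded protein by raising the genes of this machinery and slowing translation, which is the unfolded protein response. VSMCs that leave the contractile state secrete collagen and other matrix, whose folding needs specialised chaperones such as HSP47 (Serpinh1).

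Values are in CPM, the reads of a gene scaled to a library of 1000000 reads, unless stated. Library totals ranged from 14953807 to 21698488 reads, and the member with fewest reads, Derl3, had 13 in its lowest library. A gene is called where the adjusted p of limma-trend, fitted to log2(CPM + 1) of all genes in all 12 libraries, was under 0.05, and changes are log2 differences with their standard error (SE). Tigar RNA was not lower in the labelled knockout. It was at 7.50 ± 0.955 CPM (SD, n = 3) in wild-type and 11.2 ± 1.12 CPM in labelled knockout untreated libraries, and at 11.9 ± 0.659 and 15.2 ± 0.888 CPM with PDGF-BB, so it was higher in the labelled knockout by 0.52 (SE 0.11, adjusted p = 0.00209) untreated and 0.33 (SE 0.11, adjusted p = 0.0292) with PDGF-BB. With 1 value per gene and the allele not given, this level cannot show whether the gene was disrupted. The group is therefore called the labelled knockout throughout.

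Replicate 1 of wild-type with PDGF-BB stood apart. Its log2 values lay at a root mean square distance of 0.42 from those of its group, against 0.14 to 0.29 for the other 11 libraries, and its deviation over genes had a rank correlation of -0.58 with exon length. Many results that use this library are given with and without it, and the others with it only. In comparisons that do not hold it, leaving it out changed no estimate of a member, and only the SE could move. All groups share 1 estimate of the spread, so calls gained there reflect a smaller SE. Markers of other cell types differed between the genotype labels. The summed level of 10 endothelial markers was 151 to 161 CPM in wild-type and 718 to 819.6 CPM in labelled knockout untreated libraries, and 116 to 124 against 662 to 684 CPM with PDGF-BB, with Cldn5 at most 1.12 CPM in any library. For 10 macrophage markers the sums were 136 to 146 against 32.6 to 39.7 CPM untreated and 104 to 145 against 32.9 to 36.4 CPM with PDGF-BB, and for 8 fibroblast markers 394 to 427 against 1305 to 1594 and 289.8 to 319 against 908 to 939 CPM. The fibroblast sums were led by Col14a1, with group means of 210.4 against 1257 CPM untreated and 136 against 821 CPM with PDGF-BB, while Pdgfra (101 against 84.7 and 68.3 against 35.7 CPM) and Cd34 (78.3 against 54.4 and 85.0 against 47.8 CPM) had lower means in the labelled knockout. No marker of these 3 lists was at 0 in all libraries of a group. Of 10 smooth muscle markers, summing to 2058 to 2591 CPM in wild-type and 2604 to 3904 CPM in labelled knockout untreated libraries and to 1656 to 2207 and 3545 to 3612 CPM with PDGF-BB, Des was under 1 CPM, and Tagln, an abundant contractile marker, was at 3.41 to 6.93 CPM over the group means. Plasma cells are rich in these chaperones, but their markers Cd79b, Jchain, Mzb1, Prdm1 and Pou2af1 were under 1 CPM in all groups, Cd79a was at most 1.00 CPM in any library, Sdc1, which other cells also express, had group means of 179.7 to 267 CPM, and the sum of 7 epithelial markers was at most 21.1 CPM. In bulk RNA, more cells of a type and more RNA per cell cannot be told apart, and the part of these cell types in the genotype differences was not tested.

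Some promoters of the members carry the sequence by which ATF6 is known to act, the ER stress response element (ERSE), in which CCAAT and CCACG are held 9 bases apart. RefSeq promoters on GRCm38.p6, from 250 bases before the start to 50 after it, were found for 29 of the 35 members, the other 6 being Atf6, Hyou1, Manf, Derl1, Sec61a1 and Fkbp10. Of the 29, 9 (31.0%) held the element on either strand, against 37 of 27025 genes (0.137%) with a promoter of the same length. The 37 include these 9. The members were chosen by name as genes of ER folding and its stress response, so the contrast is a description and not a test. The 10 matches are shown in the element's own direction with CCAAT and CCACG in capitals, since they mark which members share it.
Hspa5: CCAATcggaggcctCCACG
Hsp90b1, far match: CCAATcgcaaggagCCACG
Hsp90b1, near match: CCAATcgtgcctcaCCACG
Creld2: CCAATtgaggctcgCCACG
Dnajc3: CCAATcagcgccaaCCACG
Calr: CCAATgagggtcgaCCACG
Canx: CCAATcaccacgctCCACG
Pdia6: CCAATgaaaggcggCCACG
Syvn1: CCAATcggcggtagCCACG
Derl3: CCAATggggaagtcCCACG

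The Hspa5 match lies at chr2:34772025-34772043 on the plus strand, 65 to 47 bases before the start. The far match of Hsp90b1 lies at chr10:86705638-86705656 on the minus strand, 212 to 194 bases before the start, and its near match at chr10:86705533-86705551 on the plus strand, 107 to 89 bases before the start. The others lie at chr15:88819520-88819538 (minus strand) for Creld2, chr14:118937827-118937845 (plus) for Dnajc3, chr8:84847075-84847093 (plus) for Calr, chr11:50325800-50325818 (minus) for Canx, chr12:17266491-17266509 (plus) for Pdia6, chr19:6046532-6046550 (plus) for Syvn1 and chr10:75893242-75893260 (minus) for Derl3. The compact form of the element, ATTGG, any base and CCACG, was in 2 of the 29 promoters against 0.0444% of genes. These were Herpud1, at chr8:94386377-94386387, and Dnajb11, at chr16:22857852-22857862, just after its start.
Herpud1: ATTGGgCCACG
Dnajb11: ATTGGcCCACG

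The whole promoters of Hspa5 (chr2:34771840-34772139, plus strand) and Hsp90b1 (chr10:86705395-86705694, minus strand) are shown in the direction of the gene, with the matches in capitals, because Hspa5 is the member of this pathway most used as its readout and Hsp90b1 is the member with 2 matches.
Hspa5 promoter: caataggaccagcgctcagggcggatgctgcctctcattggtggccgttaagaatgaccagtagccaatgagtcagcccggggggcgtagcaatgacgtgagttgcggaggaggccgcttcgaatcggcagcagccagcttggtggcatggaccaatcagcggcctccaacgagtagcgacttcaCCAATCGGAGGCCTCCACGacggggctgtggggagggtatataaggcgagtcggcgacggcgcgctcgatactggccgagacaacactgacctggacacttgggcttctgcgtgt
Hsp90b1 promoter: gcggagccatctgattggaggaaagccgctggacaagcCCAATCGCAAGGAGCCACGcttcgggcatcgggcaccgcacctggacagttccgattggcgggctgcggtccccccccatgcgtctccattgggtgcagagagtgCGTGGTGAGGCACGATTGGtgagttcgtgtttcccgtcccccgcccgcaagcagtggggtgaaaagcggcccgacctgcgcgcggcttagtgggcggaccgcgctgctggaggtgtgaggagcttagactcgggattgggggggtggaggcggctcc

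The sequence TGACGTGG, an unfolded protein response element bound by XBP1, was in 1 of the 29 promoters (Txndc5) and in 0.714% of genes, and TGATGNAA, the amino acid response element read by ATF4, was in 2 (Herpud1 and Txndc5) and in 4.51% of genes. The sequence CCACG alone was in 86.2% of the members' promoters and 35.5% of genes, and CCAAT alone in 75.9% and 41.1%. Both are parts of the full element, and all motifs were searched on both strands. A match describes the sequence and not its use. The 9 members with the full element had a median log2 change with PDGF-BB in wild-type of 0.40, and the 18 members with neither form of the element had 0.40 too. With PDGF-BB in labelled knockout the medians were 0.27 and 0.35. In labelled knockout against wild-type they were 0.43 and 0.24 untreated, and 0.26 and 0.15 with PDGF-BB. These differences were not tested.

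Per kilobase of exon, as listed in the deposited table, the members spanned from 0.886 CPM for Derl3, a paralogue used mainly in secretory glands, to 466 CPM for Serpinh1 in untreated wild-type cells. Below Serpinh1 came the lectin Calr at 393, the isomerases Pdia3 at 324, P4hb at 324 and Txndc5 at 209, and the chaperone Hspa5 at 191 CPM per kilobase. The sensors were near the bottom, Eif2ak3 at 10.8, Atf6 at 9.51 and Ern1 at 8.62 CPM per kilobase. In labelled knockout with PDGF-BB, Hspa5 stood 3rd at 559.5 CPM per kilobase, and Serpinh1 was again highest at 908.

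The members' share of all reads differed between the groups. Together they took 0.904%, 0.921% and 0.900% of reads in wild-type untreated, 1.49%, 1.29% and 1.24% in wild-type with PDGF-BB, 1.14%, 1.23% and 1.23% in labelled knockout untreated, and 1.53%, 1.51% and 1.56% in labelled knockout with PDGF-BB. The wild-type untreated libraries were lowest and the labelled knockout libraries with PDGF-BB highest, with no overlap of these groups with the others. Replicate 1 of wild-type with PDGF-BB was the highest library of its group.

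Most members were higher with PDGF-BB in both genotype labels. In wild-type 28 of 35 members were called higher and 1 lower, where 25.0% of the 14202 genes tested were called higher and 34.4% lower. The members' median change was 0.41 and that of all genes -0.082. In labelled knockout 23 were called higher and 0 lower, where 17.6% of genes were called higher and 24.8% lower, with medians of 0.33 for the members and -0.067 for all genes. All 23 were also called higher in wild-type. The other 5 called higher in wild-type were Derl1, Derl2, Dnajb11, Edem3 and Sec61b. Without wild-type PDGF-BB replicate 1, 29 members were higher and 2 lower in wild-type (26.5% and 37.4% of genes), and 29 higher and 0 lower in labelled knockout (24.4% and 32.7% of genes).

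**Figure D1:**
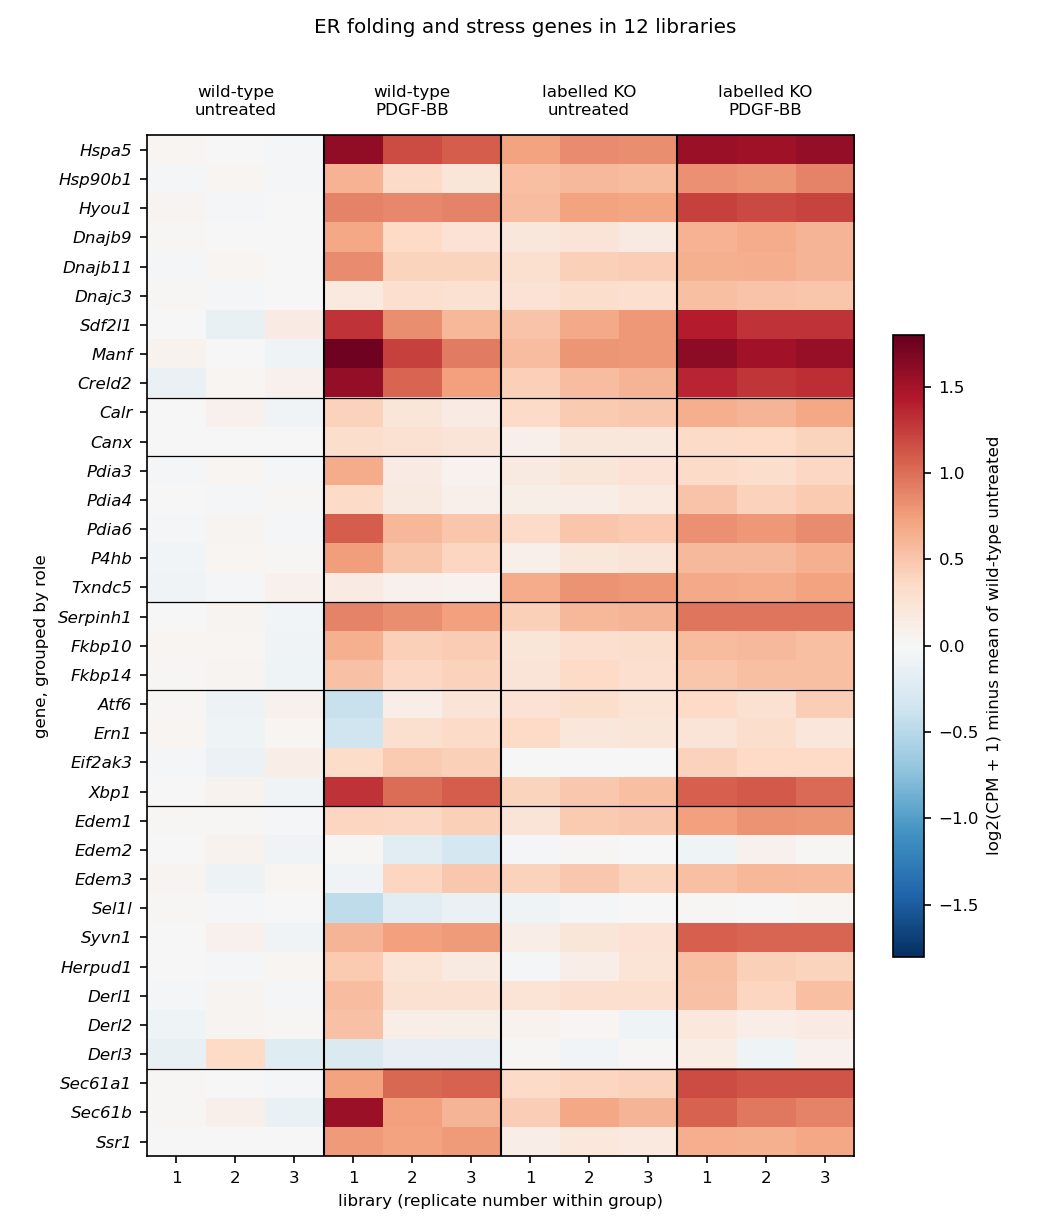
Expression of the 35 members in the 12 libraries, as log2(CPM + 1) minus the mean of the wild-type untreated libraries, with members in rows by role, libraries in columns by group, red for higher and blue for lower values. The chaperone, collagen folding and translocon rows are red in the other 3 groups, while Derl3, Edem2 and Sel1l stay near 0 or turn blue. Among the deepest reds are Hspa5 and Manf in the labelled knockout with PDGF-BB, and Hspa5, Manf, Creld2 and Sec61b in wild-type PDGF-BB 1.

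Without PDGF-BB, the members were higher in the labelled knockout than in wild-type. Of 35, 23 were called higher and 0 lower, where 9.15% of genes were called higher and 24.8% lower, and the median was 0.29 for the members and -0.13 for all genes. In 29 members all 3 labelled knockout libraries lay above all 3 wild-type libraries and in 0 below them, as they did in 14.1% and 40.5% of genes. With PDGF-BB in both, 12 members were called higher and 0 lower, where 10.6% of genes were called higher and 26.6% lower, with medians of 0.19 and -0.14. All 3 labelled knockout libraries with PDGF-BB were the higher in 15 members and the lower in 1, Ssr1, as in 13.6% and 35.9% of genes. Replicate 1 weighs on this count: without it 26 members were higher and 0 lower (11.9% and 29.7% of genes), and in untreated cells 29 were higher and 0 lower (13.3% and 36.9%). The 14 members gained with PDGF-BB were Creld2, Derl1, Dnajb9, Dnajb11, Edem2, Fkbp10, Herpud1, Hspa5, Manf, P4hb, Pdia3, Pdia6, Sec61b and Serpinh1. The genotype comparisons depend on scaling. Trimmed-mean (TMM) scaling moved the median of all genes from -0.13 to 0.017 untreated and from -0.14 to -0.011 with PDGF-BB, and the genes called went from 1300 higher and 3523 lower to 2100 and 1823 untreated, and from 1507 and 3777 to 2166 and 1676 with PDGF-BB. The members called higher then numbered 30 (14.8% of genes) untreated and 22 (15.3%) with PDGF-BB, with 0 lower in both (12.8% and 11.8% of genes). For PDGF-BB in labelled knockout, TMM scaling moved the genes called from 2502 higher and 3523 lower to 3287 and 2777, and called 26 members higher and 0 lower (23.1% and 19.6% of genes).

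The group means followed a common order. In 32 of the 35 members the lowest mean was that of wild-type untreated cells, as in 16.4% of the genes tested, and in 28 the highest was that of labelled knockout cells with PDGF-BB, as in 9.70% of genes. The 18 members called higher with PDGF-BB in both labels and in the untreated labelled knockout were Calr, Canx, Creld2, Dnajc3, Edem1, Fkbp10, Fkbp14, Hsp90b1, Hspa5, Hyou1, Manf, Pdia6, Sdf2l1, Sec61a1, Serpinh1, Ssr1, Syvn1 and Xbp1. Of these, Calr, Dnajc3, Edem1, Hsp90b1, Hyou1, Sdf2l1 and Syvn1 were higher in labelled knockout with PDGF-BB too. Derl3, Edem2, Ern1 and Pdia3 were called in no comparison. Under at least 1 other filter, scaling, choice of groups, block or length correction, calls with PDGF-BB were lost for Calr, Derl2, Edem3, Pdia4 and Sel1l in wild-type and for Calr, Canx, Dnajc3 and Hsp90b1 in labelled knockout, and genotype calls for Canx, Sec61b, Ssr1 and Syvn1 untreated and for Atf6, Edem3, Pdia4, Sdf2l1 and Sel1l with PDGF-BB. The 4 comparisons share libraries, so their values are set side by side and are not independent of each other.

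The 9 chaperones and co-chaperones were all called higher with PDGF-BB in wild-type, 8 in labelled knockout, 8 in the untreated labelled knockout against wild-type, and 4 in that comparison with PDGF-BB. Hspa5 (BiP), the Hsp70 of the ER that also holds the sensors inactive, was at 721, 697 and 684 CPM in wild-type untreated, 2111, 1585 and 1497 in wild-type with PDGF-BB, 1159, 1267 and 1253 in labelled knockout untreated and 2051, 2023 and 2090.4 in labelled knockout with PDGF-BB. Treated libraries lay above untreated ones of the same label, untreated labelled knockout lay above untreated wild-type, and the treated groups of both labels overlapped through replicate 1 of wild-type. The log2 change with PDGF-BB was 1.29 (SE 0.11, adjusted p = 4.31e-07) in wild-type and 0.75 (SE 0.11, adjusted p = 0.00011) in labelled knockout, and the genotype difference was 0.81 (SE 0.11, adjusted p = 7.14e-05) untreated and 0.26 (adjusted p = 0.0683) with PDGF-BB. Without replicate 1 this last difference was 0.42 (adjusted p = 5.04e-06).

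Manf, a secreted ER protein that binds BiP, had the largest estimate of the group with PDGF-BB in both labels, although without replicate 1 that of Hspa5 in wild-type was larger (1.14 against 1.08). It was at 48.8, 46.9 and 43.8 CPM in wild-type untreated and 159, 110.3 and 89.9 with PDGF-BB, and at 69.0, 81.2 and 80.8 CPM in labelled knockout untreated and 143, 134 and 140.0 with PDGF-BB. The 3 wild-type treated libraries were spread widely, with replicate 1 highest, and enclosed the labelled knockout treated ones. The change was 1.31 (SE 0.15, adjusted p = 7.99e-06) in wild-type, or 1.08 without replicate 1, and 0.85 (SE 0.15, adjusted p = 0.000542) in labelled knockout, and the untreated genotype difference was 0.71 (SE 0.15, adjusted p = 0.00244).

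Hsp90b1 (GRP94), the Hsp90 of the ER, was 1 of the 4 chaperones called between the labels with PDGF-BB. Its values were 426, 444 and 427 CPM in wild-type untreated, 667, 550.0 and 505 in wild-type with PDGF-BB, 629.9, 651 and 643 in labelled knockout untreated and 765, 751 and 801 in labelled knockout with PDGF-BB. The untreated labelled knockout libraries lay within the range of the treated wild-type ones. The genotype difference was 0.57 (SE 0.087, adjusted p = 0.000226) untreated and 0.44 (SE 0.087, adjusted p = 0.00176) with PDGF-BB (0.55 without replicate 1). The change with PDGF-BB was 0.40 in wild-type (0.28 without replicate 1) and 0.27 (adjusted p = 0.0243) in labelled knockout. The last call was lost without any 1 of 5 labelled knockout libraries (untreated 1, 2 and 3, and PDGF-BB 1 and 3), with adjusted p of 0.0502 to 0.0882. Exons of Hsp90b1 share 10.3% of their bases with an antisense gene, and the strand setting of the counting is not given in the sources used here. Other members also overlap antisense genes, among them Sec61a1 (8.2% of exon bases), Eif2ak3 (8.0%) and Fkbp10 (6.6%).

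The co-chaperones moved the same way. Hyou1 (GRP170), a nucleotide exchange factor of BiP, was at 172, 161 and 164 CPM in wild-type untreated, 307, 303 and 307 with PDGF-BB, 244, 274 and 272 in labelled knockout untreated and 389.8, 378 and 385 in labelled knockout with PDGF-BB. Its groups did not overlap in any of the 4 comparisons, and replicate 1 did not stand out. The changes were 0.88 (SE 0.061, adjusted p = 7.81e-08) and 0.55 (SE 0.061, adjusted p = 1.35e-05) with PDGF-BB, and 0.66 (SE 0.061, adjusted p = 2.49e-06) and 0.33 (SE 0.061, adjusted p = 0.00106) between the labels. Creld2, a disulphide isomerase-like protein, rose by 1.12 in wild-type (0.89 without replicate 1) and 0.80 in labelled knockout. Sdf2l1, a BiP cofactor, rose by 0.92 in wild-type (0.72 without replicate 1) and 0.68 in labelled knockout. The DnaJ proteins, which feed clients to BiP, had smaller estimates. With PDGF-BB Dnajb9 changed by 0.44 in wild-type (0.31 without replicate 1) and 0.44 in labelled knockout. Dnajc3 changed by 0.25 in wild-type (0.29 without replicate 1) and 0.22 in labelled knockout. Dnajb11 changed by 0.55 (adjusted p = 0.000375) in wild-type, or 0.40 without replicate 1. Its value in labelled knockout was 0.25 (adjusted p = 0.0634), which passed without replicate 1 at the same estimate (adjusted p = 0.000186). The Creld2 genotype difference in untreated cells, 0.53 (adjusted p = 0.0168), was lost without wild-type untreated 1 or labelled knockout untreated 2 or 3 (adjusted p of 0.0535 to 0.0703). That of Sdf2l1 with PDGF-BB, 0.42 (adjusted p = 0.0367), was lost without any 1 of 6 libraries (wild-type untreated 1, wild-type PDGF-BB 2 and 3, labelled knockout PDGF-BB 1, 2 and 3), and was 0.27 (adjusted p = 0.122) without wild-type PDGF-BB 3 and 0.62 (adjusted p = 9.19e-05) without wild-type PDGF-BB 1.

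**Figure D2:**
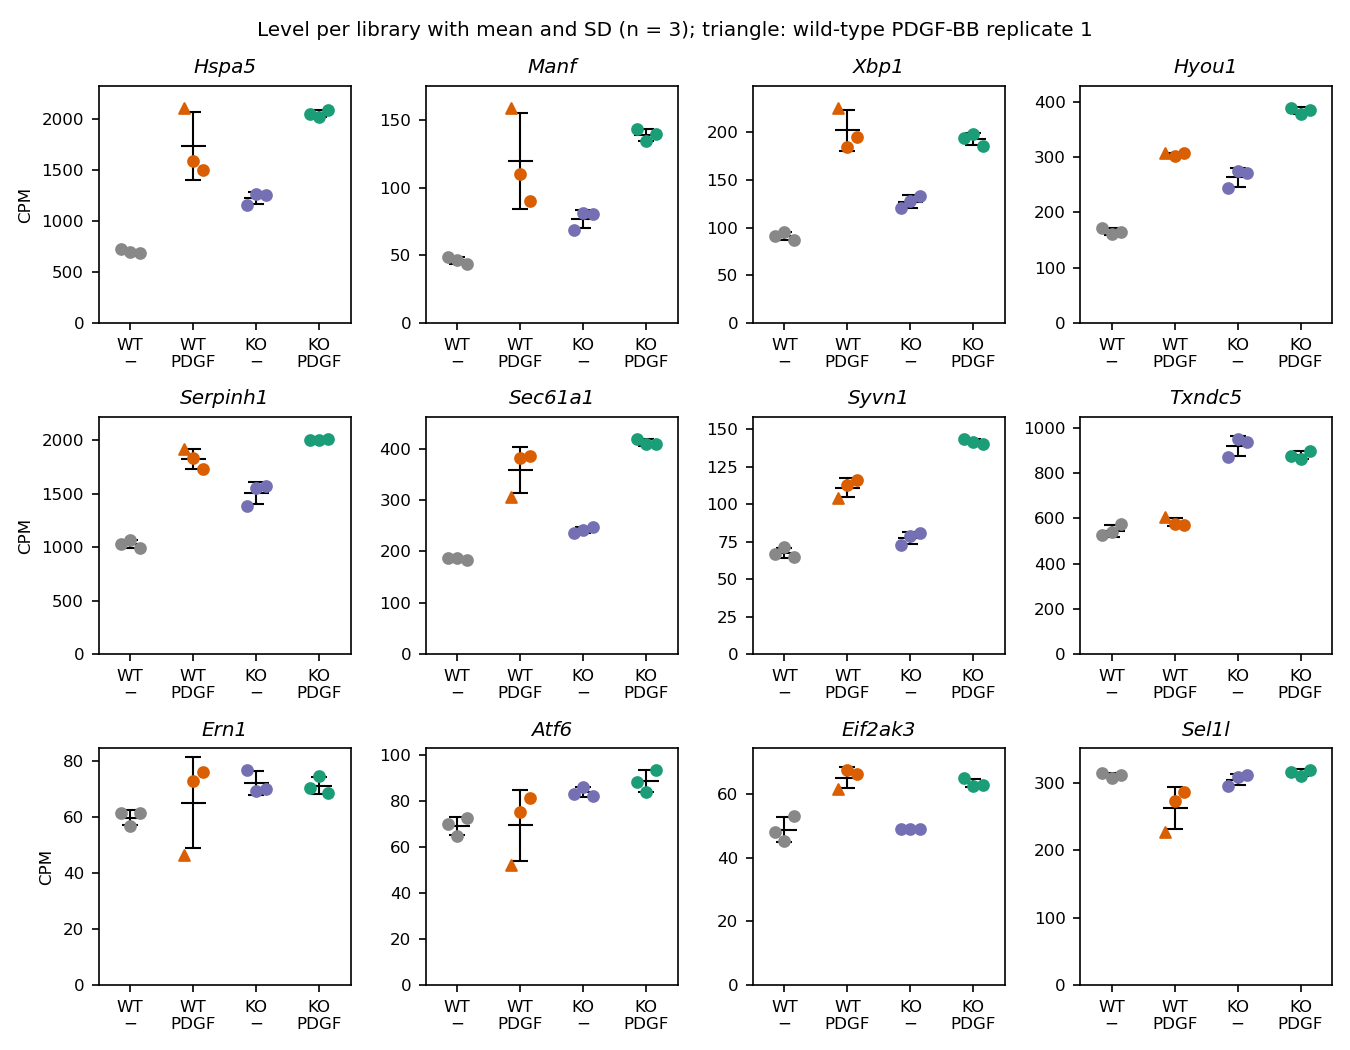
CPM of 12 members in each library, with 1 panel per gene, groups on the horizontal axis and a bar at each group mean. The triangle is replicate 1 of wild-type with PDGF-BB, which is highest of its group for Hspa5, Manf, Xbp1, Serpinh1 and Txndc5. It is lowest for Atf6, Ern1, Eif2ak3, Sel1l, Sec61a1 and Syvn1, and lies between the others for Hyou1.

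Both lectin chaperones, which hold glycoproteins through their sugars, were called higher with PDGF-BB in both labels and in the untreated labelled knockout, and Calr also in the labelled knockout with PDGF-BB. Calr (calreticulin) was at 855, 904 and 818 CPM in wild-type untreated, 1148, 998 and 955 with PDGF-BB, 1087, 1192 and 1203 in labelled knockout untreated and 1352, 1317 and 1388 in labelled knockout with PDGF-BB. Untreated labelled knockout libraries lay within or above the range of treated wild-type ones. The genotype differences were 0.43 (SE 0.082, adjusted p = 0.00111) and 0.39 (SE 0.082, adjusted p = 0.00244). The changes with PDGF-BB were 0.26 (adjusted p = 0.0134) in wild-type, or 0.19 without replicate 1, and 0.22 (adjusted p = 0.0427) in labelled knockout. The change in wild-type lost its call without wild-type untreated 3 (adjusted p = 0.0609), and that in labelled knockout without any 1 of 10 libraries, the exceptions being wild-type PDGF-BB 1 and 3.

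Canx (calnexin), the membrane-bound partner of Calr, was at 651, 656 and 662 CPM in wild-type untreated, 817, 792 and 773 with PDGF-BB, 702, 759 and 756 in labelled knockout untreated and 835, 845 and 863 in labelled knockout with PDGF-BB. All 4 comparisons were free of overlap, with small differences. They were 0.27 (adjusted p = 0.00166) and 0.20 (adjusted p = 0.0182) with PDGF-BB, and 0.17 (adjusted p = 0.0452) and 0.094 (adjusted p = 0.238) between the labels. The untreated genotype call was lost without any 1 of 9 libraries, and the call in labelled knockout without labelled knockout untreated 1 or PDGF-BB 2 or 3.

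The 5 protein disulphide isomerases, which make and reshuffle disulphide bonds, were less uniform. With PDGF-BB 3 were called higher in each label (Pdia4, Pdia6 and P4hb), 2 in the untreated labelled knockout (Pdia6 and Txndc5) and 2 in the labelled knockout with PDGF-BB (Pdia4 and Txndc5). Pdia6, which also acts on the sensors, was at 281, 299 and 285 CPM in wild-type untreated, 614, 437 and 409.8 with PDGF-BB, 368, 407 and 401 in labelled knockout untreated and 512, 496 and 521 in labelled knockout with PDGF-BB. Replicate 1 lay far above the other treated wild-type libraries. The change was 0.73 (SE 0.12, adjusted p = 0.000129) in wild-type, or 0.55 without that library, and 0.38 (adjusted p = 0.0183) in labelled knockout, a call lost without labelled knockout untreated 1 or PDGF-BB 1 or 3.

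P4hb, the isomerase that is also the beta subunit of collagen prolyl 4-hydroxylase, was at 896, 948 and 939.6 CPM in wild-type untreated, 1570.1, 1306 and 1209 with PDGF-BB, 988, 1073 and 1093 in labelled knockout untreated and 1389.9, 1393 and 1450.2 in labelled knockout with PDGF-BB. Treatment parted its libraries in both labels, by 0.54 (SE 0.091, adjusted p = 0.000189) and 0.43 (SE 0.091, adjusted p = 0.00205), while its genotype values of 0.18 (adjusted p = 0.147) and 0.06 (adjusted p = 0.626) did not pass the test. Without replicate 1 both genotype values passed, at 0.18 (adjusted p = 0.00588) and 0.17 (adjusted p = 0.0219), and the change with PDGF-BB in wild-type was 0.44.

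Txndc5 (ERp46) had the reverse pattern. It was at 525, 538 and 576 CPM in wild-type untreated and 605, 577 and 573 with PDGF-BB, and at 869, 953 and 938 CPM in labelled knockout untreated and 876, 865 and 899 with PDGF-BB. Libraries overlapped between treatments and were parted by label. The genotype differences, 0.75 (SE 0.065, adjusted p = 1.51e-06) and 0.59 (SE 0.065, adjusted p = 1.42e-05), kept their calls without any 1 library, and the values with PDGF-BB were 0.10 (adjusted p = 0.203) and -0.064 (adjusted p = 0.461). Its exons share 6.92% and 4.99% of their bases with 2 antisense genes, one of them Bmp6. Pdia4 changed by 0.20 (adjusted p = 0.0207) and 0.33 (adjusted p = 0.00159) with PDGF-BB. The first was 0.13 without replicate 1, and its call was lost without wild-type untreated 1 or 2. Pdia3 (ERp57), which works with the lectins, passed in no comparison, and its treated wild-type libraries were at 1429.8, 991 and 943 CPM, with replicate 1 far above the others. Without that library Pdia3 passed with PDGF-BB in labelled knockout, at 0.13 (adjusted p = 0.0166), and between the labels, at 0.21 (adjusted p = 0.000584) untreated and 0.24 (adjusted p = 0.000813) with PDGF-BB. In labelled knockout its estimate stayed the same and its SE fell from 0.12 to 0.043, since the groups share the spread.

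The 3 collagen folding factors were called higher with PDGF-BB in both labels and in the untreated labelled knockout, and none was called between the labels with PDGF-BB when all libraries were kept. Serpinh1 (HSP47), the collagen-specific chaperone, was at 1033, 1069 and 993 CPM in wild-type untreated, 1921, 1834 and 1729 with PDGF-BB, 1385, 1554 and 1577 in labelled knockout untreated and 2005, 2008 and 2017 in labelled knockout with PDGF-BB. No group overlapped its neighbour, and the treated groups lay closer together than the untreated ones. The changes were 0.82 (SE 0.076, adjusted p = 1.09e-06) and 0.42 (SE 0.076, adjusted p = 0.000664) with PDGF-BB, and the genotype differences 0.54 (SE 0.076, adjusted p = 0.000114) untreated and 0.14 (adjusted p = 0.168) with PDGF-BB, the last being 0.17 (adjusted p = 0.0247) without replicate 1. Fkbp10 (FKBP65), a prolyl isomerase that works with HSP47, and Fkbp14 (FKBP22), a prolyl isomerase for collagen, were called in the same comparisons. Without replicate 1 Fkbp10 was also called between the labels with PDGF-BB, at 0.13 (adjusted p = 0.0366). Fkbp10 changed by 0.51 and 0.29 with PDGF-BB and by 0.28 in the untreated labelled knockout, and Fkbp14 by 0.44, 0.23 and 0.30.

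**Figure D3:**
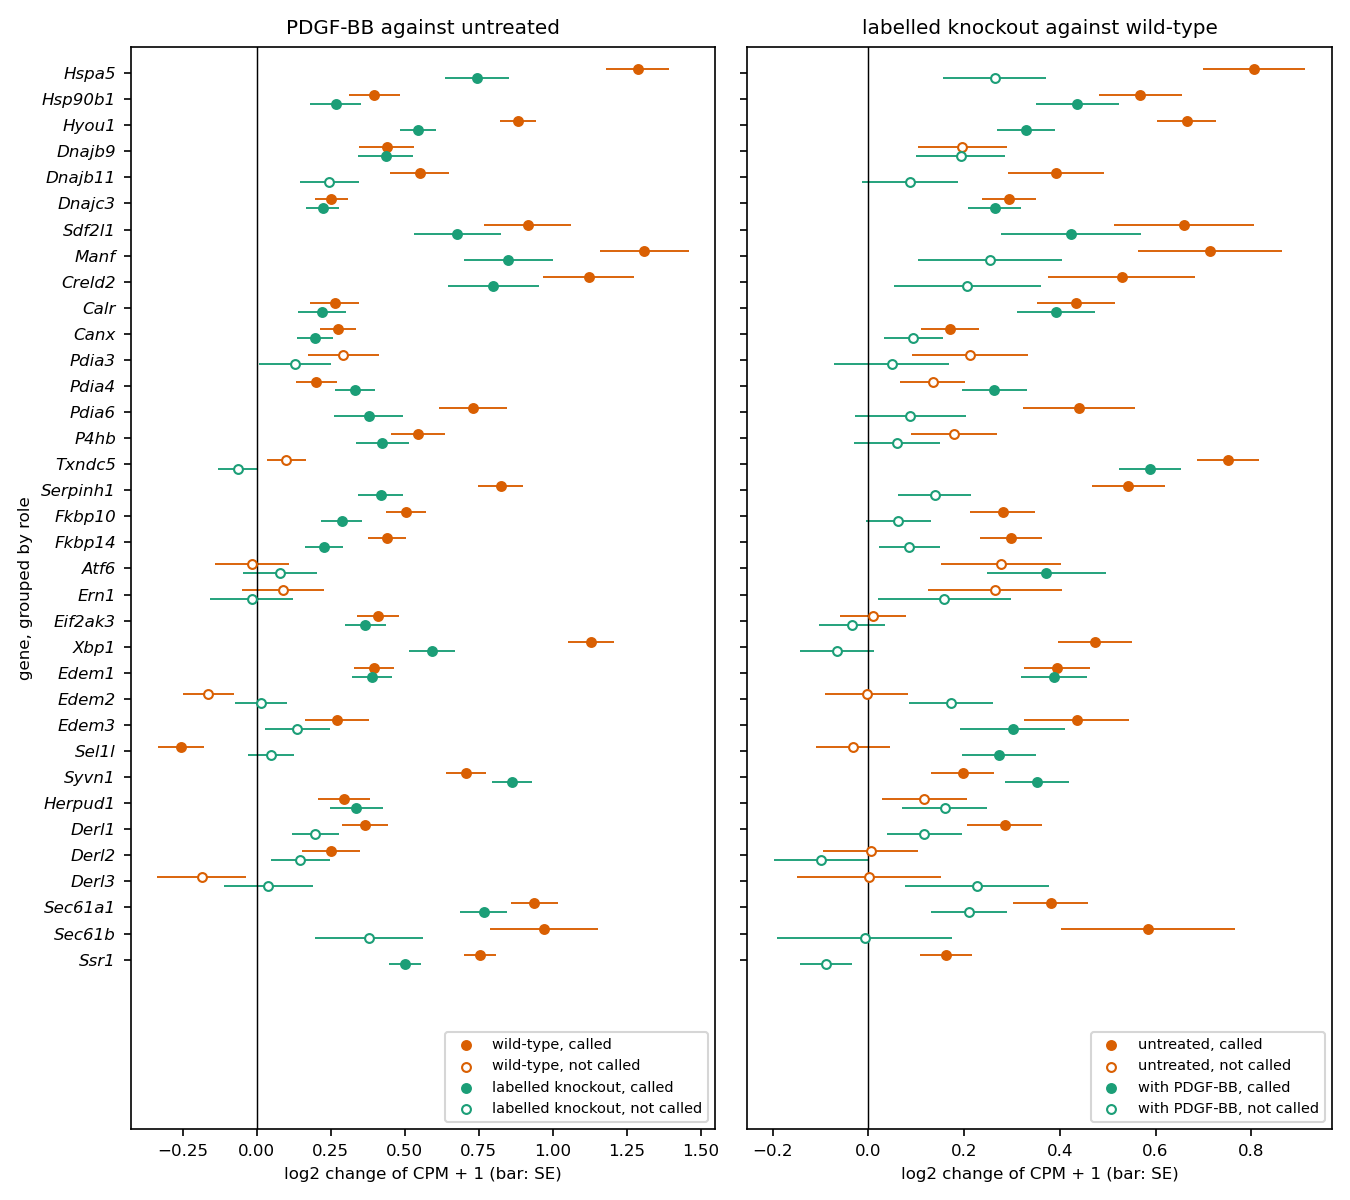
Log2 change of each member in the 4 pairwise comparisons, with the standard error as a horizontal bar and filled points where the adjusted p of limma-trend was under 0.05. The wild-type PDGF-BB panel reaches 1.31 (Manf), and the only filled point below 0 in it is Sel1l at -0.26.

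Among the sensors, Eif2ak3 was called with PDGF-BB, Atf6 was called between the labels with PDGF-BB, and Ern1 was called in no comparison. Eif2ak3 (PERK), the kinase that slows translation, was at 48.0, 45.4 and 53.1 CPM in wild-type untreated, 61.5, 67.8 and 66.3 with PDGF-BB, 49.2, 49.0 and 49.0 in labelled knockout untreated and 65.1, 62.6 and 63.0 in labelled knockout with PDGF-BB. Treatment parted the libraries and the labels did not. The change was 0.41 (SE 0.07, adjusted p = 0.000222) in wild-type and 0.37 (SE 0.07, adjusted p = 0.000929) in labelled knockout, and the genotype values were 0.0096 (adjusted p = 0.935) and -0.034 (adjusted p = 0.723).

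Atf6, the sensor that is itself cleaved into a transcription factor, was at 69.8, 64.6 and 72.4 CPM in wild-type untreated, 52.0, 75.0 and 81.0 with PDGF-BB, 83.0, 86.1 and 81.9 in labelled knockout untreated and 88.3, 83.9 and 93.6 in labelled knockout with PDGF-BB. Replicate 1 was the lowest library of all 12, below the untreated ones, while the other 2 treated libraries lay above them. The change in wild-type was -0.014 (adjusted p = 0.929) and, without replicate 1, 0.18 (adjusted p = 0.0175). The genotype difference with PDGF-BB was 0.37 (SE 0.12, adjusted p = 0.0324), and 0.18 (adjusted p = 0.025) without replicate 1; its call was lost without any 1 labelled knockout PDGF-BB library. Untreated, the value was 0.28 (adjusted p = 0.105).

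Ern1 (IRE1 alpha), the kinase and endoribonuclease that splices Xbp1 mRNA, was at 61.4, 56.7 and 61.4 CPM in wild-type untreated, 46.5, 72.9 and 76.1 with PDGF-BB, 77.0, 69.3 and 70.0 in labelled knockout untreated and 70.4, 74.6 and 68.8 in labelled knockout with PDGF-BB. As for Atf6, replicate 1 was lowest of the 12 and the other treated wild-type libraries were above untreated ones. The values were 0.089 (adjusted p = 0.597) and -0.017 (adjusted p = 0.934) with PDGF-BB and 0.26 (adjusted p = 0.163) and 0.16 (adjusted p = 0.386) between the labels, and without replicate 1 the first became 0.31 (adjusted p = 0.000235) and the third 0.26 (adjusted p = 0.000617).

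Xbp1, the transcription factor made active by that splicing, rose with PDGF-BB in both labels, to levels that overlapped. It was at 91.6, 95.9 and 87.2 CPM in wild-type untreated, 226, 185 and 195 with PDGF-BB, 121, 128 and 134 in labelled knockout untreated and 194, 198 and 186 in labelled knockout with PDGF-BB. Untreated libraries were parted by label, and treated ones overlapped. The changes were 1.13 (SE 0.077, adjusted p = 7.18e-08) in wild-type and 0.59 (SE 0.077, adjusted p = 5.07e-05) in labelled knockout, and the genotype values 0.47 (SE 0.077, adjusted p = 0.000379) untreated and -0.065 (adjusted p = 0.526) with PDGF-BB. The table has 1 value per gene, so the spliced form was not measured.

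Of the 9 genes of ER-associated degradation, which recognise misfolded proteins and pass them to the proteasome, 6 were called higher and 1 lower with PDGF-BB in wild-type, 3 higher and 0 lower in labelled knockout, and 4 higher and 0 lower between the labels at each treatment. Syvn1 (HRD1), the ubiquitin ligase at the centre of this system, was at 67.0, 71.1 and 64.4 CPM in wild-type untreated, 104, 113 and 116 with PDGF-BB, 73.0, 78.6 and 80.9 in labelled knockout untreated and 144, 141 and 140.2 in labelled knockout with PDGF-BB. No comparison overlapped, and labelled knockout with PDGF-BB was highest. The changes were 0.71 (SE 0.067, adjusted p = 1.3e-06) in wild-type and 0.86 (SE 0.067, adjusted p = 5.51e-07) in labelled knockout, and the genotype differences 0.20 (adjusted p = 0.0356) and 0.35 (SE 0.067, adjusted p = 0.00121). The untreated genotype call was lost without any 1 of 7 libraries (adjusted p of 0.0521 to 0.139).

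Sel1l, the adaptor that holds HRD1 stable, was the 1 member called lower with PDGF-BB in wild-type. It was at 315, 308 and 313 CPM in wild-type untreated, 227, 273 and 287 with PDGF-BB, 295, 308 and 312 in labelled knockout untreated and 316, 310.4 and 319.9 in labelled knockout with PDGF-BB. The 3 treated wild-type libraries lay under all other 9, with replicate 1 lowest. The change in wild-type was -0.26 (SE 0.077, adjusted p = 0.0118), and -0.15 (adjusted p = 0.00486) without replicate 1, and the value in labelled knockout was 0.049 (adjusted p = 0.644). The fall did not pass with TMM scaling, at -0.16 (adjusted p = 0.136), with edgeR, at -0.17 (adjusted p = 0.108), with DESeq2, at -0.19 (adjusted p = 0.074), with only the wild-type groups in the fit (adjusted p = 0.0638) or with the exon length trend removed, at -0.10 (adjusted p = 0.0752). The genotype difference with PDGF-BB, 0.27 (adjusted p = 0.0148), was 0.17 without that library and lost its call without labelled knockout PDGF-BB 3.

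The EDEM proteins trim the sugars of misfolded glycoproteins. Edem1 was at 105, 106 and 101 CPM in wild-type untreated, 137, 136 and 139.9 with PDGF-BB, 123, 144 and 146 in labelled knockout untreated and 175, 183 and 182 in labelled knockout with PDGF-BB. It changed by nearly the same amount in all 4 comparisons, 0.40 and 0.39 with PDGF-BB and 0.39 and 0.39 between the labels. Edem3 was at 109, 99.0 and 109 CPM in wild-type untreated, 101, 138 and 149 with PDGF-BB, 142, 148 and 140.1 in labelled knockout untreated and 154, 160.0 and 159 in labelled knockout with PDGF-BB. Replicate 1 lay among the untreated libraries. The Edem3 change in wild-type, 0.27 (adjusted p = 0.0467), was 0.44 (adjusted p = 1.35e-06) without replicate 1, 0.16 (adjusted p = 0.188) without wild-type PDGF-BB 3, and lost its call without any 1 library but replicate 1. Its genotype differences were 0.44 (SE 0.11, adjusted p = 0.00768) untreated and 0.30 (adjusted p = 0.0449) with PDGF-BB, the last being 0.14 without replicate 1 and losing its call without any 1 library of the other 3 groups. Edem2 was called in no comparison, with group means of 33.9, 30.3, 33.8 and 34.1 CPM in the same order of groups. Without replicate 1 its values were -0.25 (adjusted p = 0.00449) with PDGF-BB in wild-type and 0.26 (adjusted p = 0.00615) between the labels with PDGF-BB.

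Herpud1, which gathers the degradation complex, changed by 0.29 (adjusted p = 0.0115) and 0.34 (adjusted p = 0.00787) with PDGF-BB, and its genotype values of 0.12 (adjusted p = 0.339) and 0.16 (adjusted p = 0.172) did not pass. Without replicate 1 the last was 0.25 (adjusted p = 0.00645), and the change with PDGF-BB in wild-type was 0.20. Of the derlins, the channel proteins of this route, Derl1 changed by 0.37 (adjusted p = 0.00137) with PDGF-BB in wild-type, or 0.27 without replicate 1. Its value with PDGF-BB in labelled knockout was 0.20 (adjusted p = 0.058), which passed without replicate 1 at the same estimate (adjusted p = 0.00188). Derl1 was higher in the untreated labelled knockout by 0.28 (adjusted p = 0.0133), a call lost without wild-type untreated 1. Derl2 changed by 0.25 (adjusted p = 0.0421) in wild-type. That value was 0.11 (adjusted p = 0.101) without replicate 1, and its call was lost without any 1 of 9 libraries. Derl3 was near the floor of the filter, between 0.789 and 1.73 CPM in all libraries.

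The 3 translocon genes had the largest median change with PDGF-BB in wild-type of the 7 role groups, 0.94, against 0.88 for the chaperones. Sec61b, the beta subunit of the channel, was at 33.3, 35.2 and 30.3 CPM in wild-type untreated, 98.9, 55.7 and 50.7 with PDGF-BB, 45.1, 53.8 and 50.9 in labelled knockout untreated and 69.4, 64.2 and 61.7 in labelled knockout with PDGF-BB. Replicate 1 stood far above the other treated wild-type libraries. The change in wild-type was 0.97 (SE 0.18, adjusted p = 0.000488), or 0.68 without replicate 1, and the value in labelled knockout was 0.38 (adjusted p = 0.112), which passed without replicate 1 at 0.38 (adjusted p = 0.00021). The untreated genotype difference was 0.58 (adjusted p = 0.0245), lost without wild-type untreated 1 or 3 or labelled knockout untreated 2 or 3. With PDGF-BB the genotype value was -0.008 (adjusted p = 0.976), and 0.29 (adjusted p = 0.00826) without replicate 1.

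Sec61a1, the channel's pore subunit, was at 187, 186 and 183 CPM in wild-type untreated, 306, 381 and 386 with PDGF-BB, 235, 242 and 248 in labelled knockout untreated and 419, 409 and 408 in labelled knockout with PDGF-BB. Here replicate 1 was the lowest of its group, and no comparison overlapped. The changes were 0.94 (SE 0.079, adjusted p = 4.97e-07) and 0.77 (SE 0.079, adjusted p = 7.15e-06) with PDGF-BB and 0.38 (SE 0.079, adjusted p = 0.00225) and 0.21 (adjusted p = 0.0519) between the labels. Ssr1, a subunit of the translocon-associated protein complex, changed by 0.75 (adjusted p = 1.08e-07) and 0.50 (adjusted p = 9.92e-06) with PDGF-BB, and by 0.16 (adjusted p = 0.0331) in the untreated labelled knockout, a call lost without any 1 of 7 libraries.

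**Figure D4:**
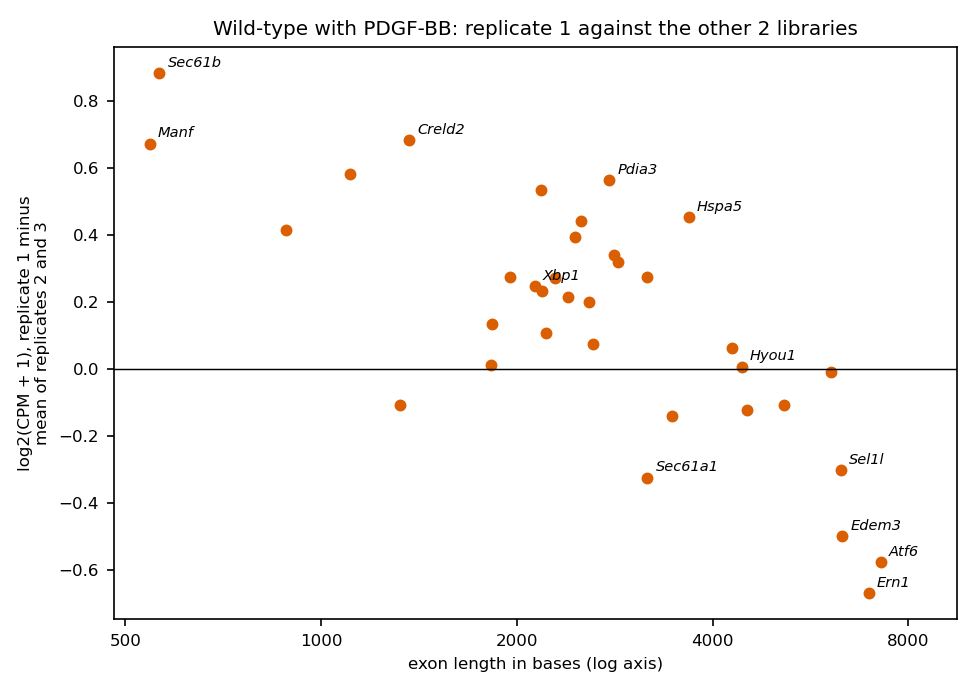
Log2 level of each member in wild-type PDGF-BB replicate 1 minus the mean of replicates 2 and 3, against exon length in bases on a log axis. Of the 22 members under 3000 bases 21 lie above 0, and all 6 members of 5000 bases or more lie below it.

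How far a member stood off in replicate 1 went with its length. The 22 members with under 3000 bases of exon had a median deviation of 0.30 from the other 2 libraries, and 21 were above 0. Of the 13 members of 3000 bases or more 4 were above and 9 below 0, with a median of -0.12, and the 6 of 5000 bases or more were all below 0, with a median of -0.40. The short Sec61b and Manf and the long Atf6, Ern1, Edem3 and Sel1l thus had their wild-type PDGF-BB means moved in opposite directions. After removal of the trend with exon length from each library, 30 members were called higher and 1 lower with PDGF-BB in wild-type (27.6% and 36.2% of genes).

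The interaction compares the PDGF-BB response of the labelled knockout with that of wild-type, a value below 0 being a smaller rise in the labelled knockout. Of 35 members 2 were called, both below 0, where 3.92% of genes were called in either direction, 1.68% below 0 and 2.25% above 0. They were Xbp1, at -0.54 (SE 0.11, adjusted p = 0.0149), and Hyou1, at -0.34 (SE 0.086, adjusted p = 0.0464). The Xbp1 call was lost without wild-type untreated 3 or labelled knockout PDGF-BB 3 (adjusted p of 0.0517 to 0.0524), and the Hyou1 call without any 1 of 10 libraries (adjusted p of 0.052 to 0.129), the exceptions being wild-type PDGF-BB 1 and labelled knockout untreated 1. Hyou1 also missed the threshold with no filter, TMM scaling, quantile normalization, edgeR or the replicate block, with adjusted p of 0.0557 to 0.0923. The estimate was below 0 in 28 of the 35 members, a count for which the share over all genes was not computed. The median was -0.13 for the members and 0.0054 for all genes, a difference that was not tested. The largest estimates that did not pass were those of Sec61b, -0.59 (adjusted p = 0.231), Hspa5, -0.54 (adjusted p = 0.0649), Manf, -0.46 (adjusted p = 0.26), and Serpinh1, -0.40 (adjusted p = 0.0544).

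Without replicate 1, 8 members were called below 0 (5.22% of genes) and 2 above 0 (5.74% of genes). Below 0 were Xbp1 at -0.46 (adjusted p = 0.00056), Hspa5 at -0.39 (adjusted p = 0.00132), Serpinh1 at -0.37 (adjusted p = 0.00539), Hyou1 at -0.33 (adjusted p = 0.00416), Ern1 at -0.33, Edem3 at -0.30, Sec61a1 at -0.28 and Ssr1 at -0.25, and above 0 were Sel1l at 0.20 and Pdia4 at 0.20. The response of Manf differed by -0.23 (adjusted p = 0.189) without that library and did not pass.

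Other genes of the same pathway, 160 tested genes in 6 lists, were called higher in 89 and lower in 20 with PDGF-BB in wild-type, in 62 and 18 in labelled knockout, in 29 and 13 in the untreated labelled knockout, and in 5 and 25 in the labelled knockout with PDGF-BB. Without replicate 1 the 4 pairs were 90 and 32, 87 and 30, 59 and 26, and 24 and 28. Over all genes tested the shares called higher and lower, with every library, were 25.0% and 34.4%, 17.6% and 24.8%, 9.15% and 24.8%, and 10.6% and 26.6% in the same order. The shares without replicate 1 were 26.5% and 37.4%, 24.4% and 32.7%, 13.3% and 36.9%, and 11.9% and 29.7%. In the last comparison, which holds replicate 1, the medians with every library were 0.19 for the members and -0.087 for these lists. This difference was not tested.

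**Figure D5:**
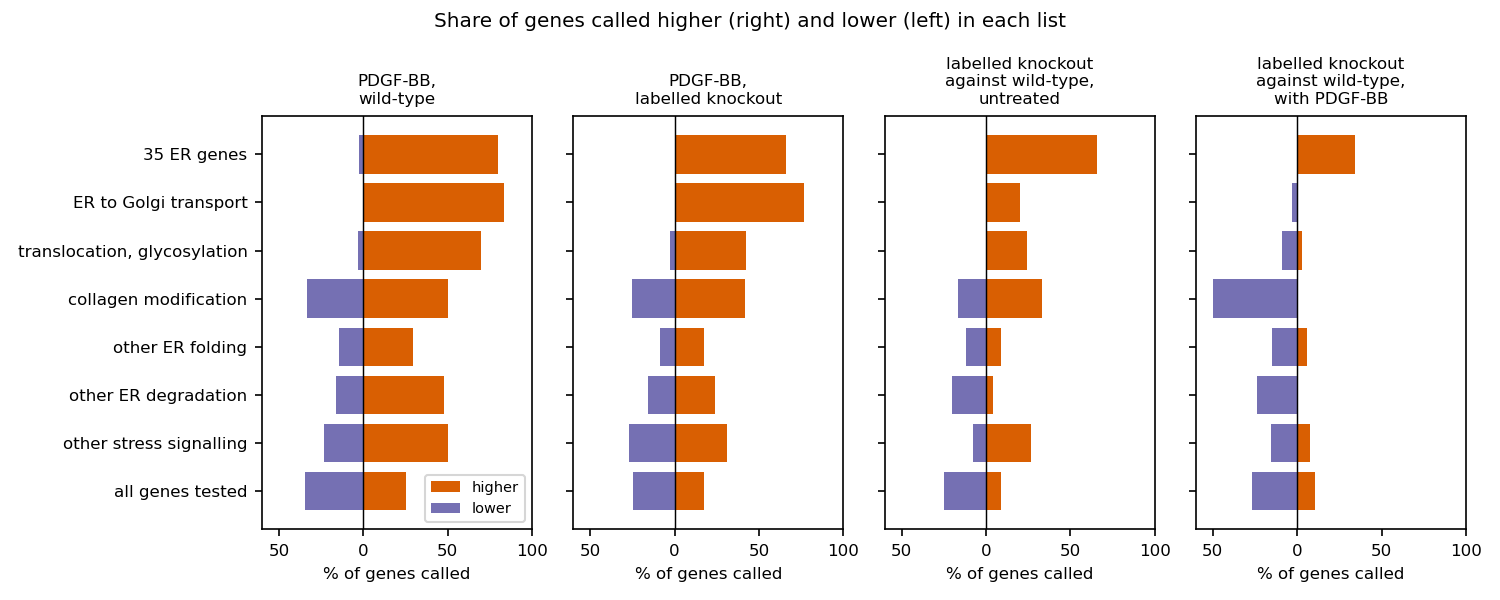
Share of genes called higher (to the right) and lower (to the left) in each pairwise comparison, in percent, for the members, the 6 lists of other ER genes and all genes tested. In the untreated genotype comparison the bar of the members, 23 of 35 called higher, reaches further right than those of the 6 lists.

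Genes of ER to Golgi transport were called higher in 25 of 30 with PDGF-BB in wild-type and 23 in labelled knockout, with 0 lower in either. Sec23b, a coat protein of the COPII vesicles that leave the ER, changed by 1.29 (SE 0.082, adjusted p = 3.51e-08) and 1.00 (SE 0.082, adjusted p = 9e-07), and Mcfd2, part of a cargo receptor, by 1.07 and 0.97. Between the labels 6 were higher untreated, with Kdelr3, a receptor that returns escaped ER proteins, at 0.41, and 1 was lower with PDGF-BB, Sar1b, the GTPase that starts the coat, at -0.45 (-0.27 without replicate 1). Of 33 genes of translocation and glycosylation 23 were higher and 1 lower in wild-type, and 14 and 1 in labelled knockout. Spcs3, a signal peptidase subunit, led at 1.31 and 1.09, followed by Ostc, of the oligosaccharyl transferase, at 1.18 and 0.60.

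Of 34 other folding and oxidation genes 10 were higher and 5 lower with PDGF-BB in wild-type, and 6 and 3 in labelled knockout, where 25.0% and 17.6% of all genes were called higher. Fkbp11, a prolyl isomerase, changed by 1.16 and 0.86, and Ero1b, an oxidase that recharges the isomerases, by -0.51 and -0.30. Ppic, cyclophilin C, was higher in the labelled knockout by 0.90 untreated and 0.72 with PDGF-BB. Of 25 other degradation genes 12 were higher and 4 lower in wild-type and 6 and 4 in labelled knockout, with Selenos, a partner of the derlins, at 0.95 and 0.55. Between the labels 1 was higher and 5 lower untreated, and 0 and 6 with PDGF-BB, where 24.8% and 26.6% of all genes were called lower.

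The 12 tested genes that modify collagen changed in both directions. With PDGF-BB in wild-type 6 were higher and 4 lower. P4ha2, a catalytic subunit of the prolyl 4-hydroxylase to which P4hb belongs, was at 36.4, 36.6 and 37.6 CPM in wild-type untreated, 107, 94.8 and 92.8 with PDGF-BB, 52.3, 53.1 and 56.2 in labelled knockout untreated and 81.8, 81.5 and 82.8 in labelled knockout with PDGF-BB. It rose by 1.39 (SE 0.066, adjusted p = 3.8e-09) and 0.60 (SE 0.066, adjusted p = 1.26e-05). Plod2, a lysyl hydroxylase of collagen ends, fell in both, with changes of -1.32 and -1.30.

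Stress signalling genes outside the members were called higher in 13 of 26 and lower in 6 with PDGF-BB in wild-type, and in 8 and 7 in labelled knockout. Atf4, the factor made when PERK or related kinases slow translation, was at 128, 135 and 123 CPM in wild-type untreated, 398, 273 and 239 with PDGF-BB, 152, 176 and 169.9 in labelled knockout untreated and 205, 206 and 205 in labelled knockout with PDGF-BB. All treated wild-type libraries lay above all others. The change was 1.20 (SE 0.14, adjusted p = 7.66e-06) in wild-type, or 0.98 without replicate 1, and the value in labelled knockout was 0.31 (adjusted p = 0.0855). Ddit3 (CHOP), the ATF4 target tied to death under prolonged stress, was at 18.5, 19.5 and 17.6 CPM in wild-type untreated, 47.8, 28.1 and 24.4 with PDGF-BB, 17.9, 20.9 and 20.1 in labelled knockout untreated and 26.7, 25.2 and 27.7 in labelled knockout with PDGF-BB. Its changes were 0.76 (adjusted p = 0.00236) and 0.42 (adjusted p = 0.0738), the first being 0.48 without replicate 1. Creb3l1 (OASIS), an ATF6-related factor that acts on collagen genes, rose by 1.36 and 1.14, and Crebrf, which promotes the breakdown of its relative CREB3, fell, with changes of -2.03 and -1.47. Trib3, another ATF4 target, was higher in the untreated labelled knockout by 1.54, and with PDGF-BB it changed by 0.95 in wild-type and -0.48 in labelled knockout.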

How the data were processed

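The data were 12 poly(A) RNA libraries in 4 groups of 3, grouped by the genotype and treatment of the labels. The aligner was HISAT2 and the counter HTSeq, on mm10, per the submitters' processing notes. Versions and the strand setting are not given in the sources used here, and the kit was a stranded one per the labels' protocols. Gene positions are on GRCm38.p6, per the file headers. The table's name says FPKM, yet its deposited values are CPM, since each library summed to 1000000 and 100.0% of values were whole reads within 0.001 read. Library totals were 14953807 to 21698488 reads, so that 1 read was at most 0.0669 CPM.

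Genes with at least 1 CPM in at least 3 libraries were log2-transformed as log2(CPM + 1) and tested with limma-trend, from limma 3.58.1 under R 4.3.3, in 1 fit of 4 group means, with Benjamini-Hochberg adjustment over 14202 genes and a threshold of 0.05. The added 1 shrinks the changes of weakly expressed genes. The code of the test was run on simulated counts with the same dispersion for all genes and no outlying library. That setting is simpler than these data, so the run does not check their p-values. The 35 members, their role groups, the other gene lists, the motifs, the tests and the alternatives were chosen with earlier results of these data known. Of 27 listed stress signalling genes 26 were matched, and Colgalt2 of the collagen modifying genes did not pass the filter. Ddit3 has 2 rows in the table, and the row with reads was used. Values in every library are given for members called in the interaction, for the called member of each role group with the largest change in each comparison, and for the sensors and Xbp1. Sel1l was added after its values were seen, as the 1 member called lower. Of each other list, called genes are drawn from the 3 with the largest change per comparison and direction, with Atf4 and Ddit3 always named. Alternatives changed the pseudocount, filter, scaling, groups fitted, replicate block, exon length trend and software, the last being DESeq2 1.42.0 or edgeR 4.0.16 run on reads recovered from CPM, and left out each library in turn. Counts of the other lists without wild-type PDGF-BB replicate 1 were added after the data were seen. Of the cell type markers 1 gene is not reported here. A planned reading of the last residues of the proteins for ER retention signals was not made, since no protein sequences were used here. Exon overlaps came from GENCODE M21, and figures from matplotlib 3.10.9 in Python 3.11.15.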

Additional observations from a re-analysis of the deposited data

Results flagged for a closer look

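The response to PDGF-BB differed between the genotype labels in 7 of the 35 members and 160 other listed genes, 2 of them members. The test was that of the difference itself (the interaction in limma-trend). The share called was close to the 3.92% of all genes called. Below 0, which is a smaller rise or a fall in the labelled knockout, were Trib3 at -1.43 (adjusted p = 0.00271), Atf4 at -0.89 (adjusted p = 0.0215), P4ha2 at -0.79 (adjusted p = 0.000573), Plod1, a lysyl hydroxylase of collagen, at -0.77 (adjusted p = 0.000431), Xbp1 at -0.54 (adjusted p = 0.0149) and Hyou1 at -0.34 (adjusted p = 0.0464). Above 0 was Crebrf at 0.56 (adjusted p = 0.0409), which fell less in the labelled knockout. Without wild-type PDGF-BB replicate 1 the values, in the same order, were -1.29, -0.68, -0.73, -0.77, -0.46, -0.33 and 0.44, and all 7 were called. That omission also raised the calls over all genes, from 557 of 14202 to 1548 of 14130. The Xbp1 call was lost without either of 2 other libraries, and the Hyou1 call without any 1 of 10.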

How the results depend on the processing

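Over 23 alternatives to each result, 3675 of 3985 values stayed on their side of the threshold with any call in its direction, 149 lost a call, 158 gained one and 3 reversed. Of the 3675, 99 changed sign and were called in neither setting. The reversals were those of values that had not passed: Atf6 with PDGF-BB in wild-type became 0.18 without wild-type PDGF-BB 1 and 0.17 with the exon length trend removed, and Sec61b between the labels with PDGF-BB became 0.29 without that library. Over the libraries left out in turn, these 2 values ran from -0.14 to 0.18 and from -0.19 to 0.29. The number of members called between the labels with PDGF-BB, 12, became 22 with TMM scaling, 21 with edgeR, 22 with DESeq2, 20 with the exon length trend removed and 7 with only the groups compared in the fit. The 2 members called in the interaction became 1 with no filter, 1 with TMM scaling, 1 with the replicate block, 4 with the exon length trend removed and 5 with DESeq2. Leaving out 1 library gave 26 to 31 members called with PDGF-BB in wild-type, 19 to 29 in labelled knockout, 17 to 29 between the labels untreated, 8 to 26 with PDGF-BB and 0 to 10 in the interaction, the highest value of each being without wild-type PDGF-BB 1. The replicate numbers gave no sign of pairing. Correlations of the deviations of same-numbered libraries, over all pairs of groups, lay between -0.23 and 0.18. Of 6 treated libraries 0 were closest to the untreated one of their own number. With so few libraries per group, and wild-type PDGF-BB 1 standing apart, this cannot exclude pairing. With the replicate number as a block, 28, 22, 21, 10 and 1 members were called in the 5 comparisons. Derl3, at 13 reads in its lowest library, is limited by depth.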
